A study of Saccharomyces cerevisiae with 593 samples.

Results

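The 18 genes described here encode proteins that cut, ligate or modify transfer RNA in Saccharomyces cerevisiae. They were chosen by symbol: a gene was taken if its name matched a list of tRNA processing and modification symbols and if the array carried it as 1 oligonucleotide in 6 copies. Of the 982 named genes on the array, 20 had a matching symbol, and POP8 and TAD3 were set aside because each has 3 oligonucleotides. One of the 18, SEN1 (YLR430W), matches by its letters but encodes an RNA and DNA helicase of transcription termination, and it is given last.

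Newly made tRNA carries extra sequence at both ends. The La protein Lhp1 binds the 3′ end of the precursor, RNase P removes the 5′ leader, an endonuclease and the ligase Trl1 remove introns, and many enzymes then alter single bases, several of them in or beside the anticodon. RNase P shares most of its proteins with RNase MRP, which cuts ribosomal RNA precursors, so the same genes serve both tRNA and ribosome production. The arrays read the messenger RNA of these enzymes, not tRNA and not the enzymes' activity.

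Each of the 593 arrays compared the RNA of a treated or mutant culture with that of a control culture on the same slide. The main wild-type treatments were 1 M KCl, 300 mM LiCl, 0.5 M NaCl, a shift to 42 degrees Celsius, complete amino acid depletion, 5 ug/mL sulfometuron methyl (SMM, which blocks branched-chain amino acid synthesis), 50 mM 3-aminotriazole (3-AT, which blocks histidine synthesis), 200 ng/mL rapamycin (an inhibitor of the TORC1 kinase), glucose depletion and nitrogen depletion. The control was a mock-treated culture of the same time, except in 3-AT and rapamycin, where it was a culture before treatment. A hog1 ORF deletion, which lacks the osmotic stress kinase, was given KCl. A his3 ORF deletion and a strain in which HIS3 was repaired were depleted of histidine. Each was set over its own mock-treated culture, so those arrays do not read the deletion itself. Further replicated wild-type groups were inositol depletion, nitrogen depletion with 50 mM 3-AT, and 1 M KCl with 50 mM 3-AT or 20 uM TBB. Each was set over a mock-treated culture of the same time, and TBB is an inhibitor of casein kinase 2. Wortmannin at 1 mg/mL (an inhibitor of lipid kinases) was set over a culture before treatment. 3-AT (50 mM) with 20 uM TBB was set over a culture before treatment or over a culture in 3-AT alone for the same time. Single replicates came from wild type in 1 M sorbitol, from ORF deletions of rrp6, edc2, cka1, cka2, ckb1 and ckb2, and from a double deletion of ckb1 and ckb2. The labels give no strain background, number of clones or separate cultures, so the p-values measure only the spread between these samples, which may be technical.

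All values are log2 ratios of treated over control, so 1 is a doubling and -1 a halving. A replicate is 1 array identifier, averaged over the 6 copies and, for 282 of 311 identifiers, over both dye orientations. A gene is called when the adjusted p of limma (a linear model fitted across all oligonucleotides, with p adjusted by Benjamini and Hochberg) is under 0.05. Between 0.0326% and 64.1% of an array's spots were missing, with a median of 4.64%; both LiCl arrays of replicate 2 at 20 min lacked over 50% of their spots. Arrays are named by batch, A to I, for the shared prefix of their identifiers. Batch B was run in 1 dye orientation only, and several single values far from their partner below come from it; the part of the dye or the missing spots in those values was not tested.

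Across 11 comparisons of a treatment with its control, at 20 min or, for nitrogen depletion, 10 min, 40 of 198 member tests (20.2%) passed: 15 higher and 25 lower. In these comparisons between 0% (nitrogen depletion) and 37.3% (rapamycin) of all oligonucleotides passed. The total therefore does not set the members apart from the array. PUS7 fell in 6 and LHP1 in 5 of the 11 comparisons. Among the 11, POP1 rose in all 3 wild-type treatments that cut the amino acid supply. The genes of 3 RNase P proteins rose in KCl. In KCl 4 of 18 members passed, 3 higher and 1 lower, where 33.8% of all 1457 oligonucleotides did (17.7% higher, 16.1% lower). LiCl gave 10, 2 higher and 8 lower, against 37.1% of all (18.9% higher, 18.2% lower), and NaCl gave 5, 1 higher and 4 lower, against 18.7% (8.79% higher, 9.88% lower). Heat shock gave 3, 1 higher and 2 lower, against 28.7% (10.6% higher, 18.1% lower), and amino acid depletion gave 4, 1 higher and 3 lower, against 26.9% (12.2% higher, 14.7% lower). SMM gave 1, which was higher, against 8.99% (3.36% higher, 5.63% lower), and 3-AT gave 3, all higher, against 11.9% (7.76% higher, 4.12% lower). Rapamycin gave 3, all lower, against 37.3% (17.3% higher, 20.0% lower), or 0 with the set-aside arrays described below used as labelled, and glucose depletion gave 7, 3 higher and 4 lower, against 35.1% (17.6% higher, 17.5% lower).

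As a share of the 18, these counts lay above the share of all oligonucleotides in LiCl, NaCl, 3-AT and glucose depletion and below it in KCl, heat shock, amino acid depletion, SMM and rapamycin. That order depended on the arrays used. With arrays lacking over 20% of their spots left out, LiCl had 27.8% of the members (5 of 18) against 31.5% of all, glucose depletion had 16.7% against 24.1%, and amino acid depletion had 38.9% against 36.9%, each on the other side. Without NaCl replicate 2 the count of NaCl was 0, and without replicate 1 that of glucose depletion was 1. Median log2 ratios over the 18 members lay between -0.22 (LiCl) and 0.09 (3-AT) in these comparisons, and the medians of all oligonucleotides between -0.02 and 0.03. Nitrogen depletion gave 0 calls by limma among the members and 0% of all oligonucleotides, with 80 oligonucleotides and 0 members at an unadjusted p under 0.05. Histidine depletion of the his3 deletion gave 0 members and 1.30% of all, with 3 members at an unadjusted p under 0.05.

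**Figure D1:**
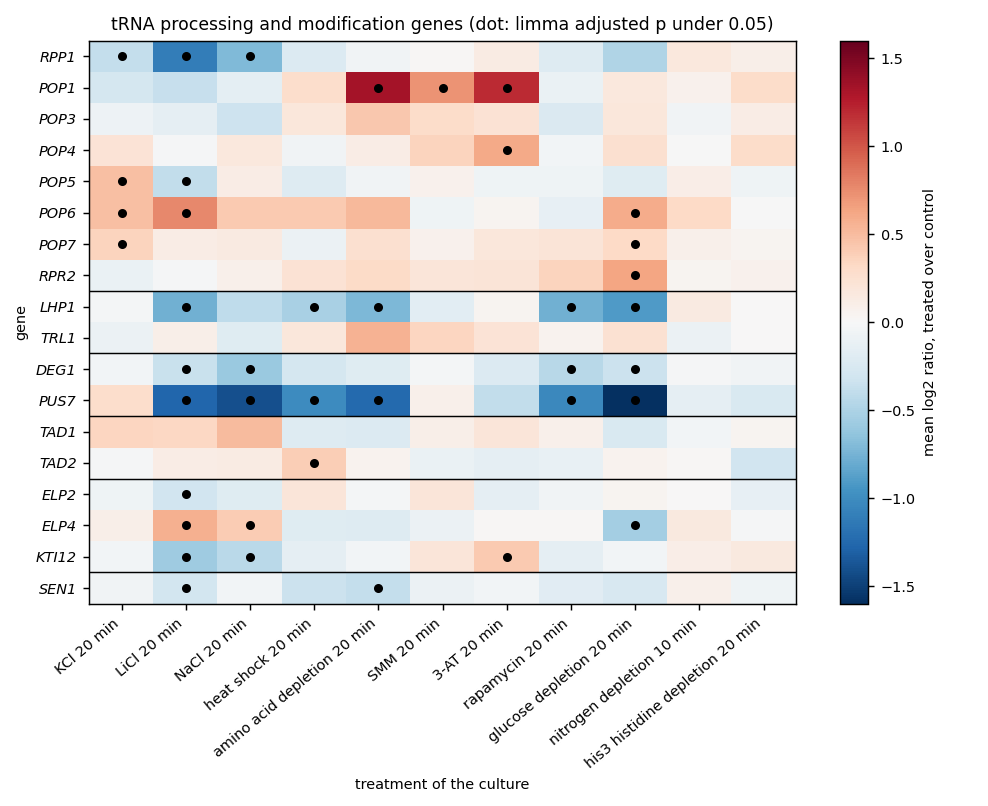
Mean log2 ratio of treated over control for the 18 genes (rows, grouped by role and separated by lines) in 11 comparisons (columns), with a black dot where limma's adjusted p was under 0.05. The blue row of PUS7 reaches -1.59 in glucose depletion, and the red cells of POP1 reach 1.33 in amino acid depletion.

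Pseudouridine synthases turn uridine into its isomer within RNA. PUS7 (YOR243C), which acts on tRNA, on a spliceosomal RNA and on messenger RNA, fell in 6 of the 11 comparisons and rose in none. The fit gave means of -1.27 in LiCl, -1.40 in NaCl, -1.0 in heat shock, -1.25 in amino acid depletion, -1.03 in rapamycin and -1.59 in glucose depletion, which is between 2.00-fold and 3.01-fold lower than in the control cultures. With batch as a random block the heat shock value was -0.56 (limma adjusted p = 0.186) and the amino acid depletion value -0.81 (limma adjusted p = 0.0502), and neither was called, which leaves PUS7 4 of the 6 calls. In KCl it averaged 0.28 and did not pass.

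PUS7 stood at -0.82, -1.95 and -1.04 in the 3 LiCl replicates (mean -1.27 ± 0.60 SD, n = 3, limma adjusted p = 0.000159). The NaCl replicates were at -0.93 and -1.87 (mean -1.40 ± 0.66, n = 2, limma adjusted p = 0.00188). Every replicate of both salts was below the control, and the call in NaCl was not made from the -0.93 of replicate 1 alone. Heat shock gave -1.30 and -0.71 (mean -1.0 ± 0.42, n = 2, limma adjusted p = 0.0233), and amino acid depletion gave -1.12 and -1.37 (mean -1.25 ± 0.17, n = 2, limma adjusted p = 0.00491). Neither of these calls held when either replicate was left out or with batch as a random block. Glucose depletion gave -2.19 in batch B and -0.98 in batch F (mean -1.59 ± 0.85, n = 2, limma adjusted p = 0.000192), and without the batch B array the gene was not called.

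Rapamycin gave PUS7 values of -1.56, -0.47 and -1.06 (mean -1.03 ± 0.54, n = 3, limma adjusted p = 0.00281). A further rapamycin replicate, read in the direction of its labels, was at 0.76 for PUS7, 1.09 for LHP1 and 0.33 for DEG1, opposite to the other 3 in each gene. It is 1 of 7 identifiers of batch C whose titles name the treated culture in the other channel and whose direction could not be settled. Read as labelled, all 7 ran against the mean of the other replicates of their group, with r over all oligonucleotides between -0.91 and -0.09. They were left out for that reason, so the choice rests on the values themselves; with them used as labelled, none of the 18 genes was called in rapamycin, and with their sign turned 4 were. The call of PUS7 also needed replicate 2, without which its mean was -0.77.

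In the remaining comparisons PUS7 stayed nearer 0. KCl replicates were at 0.05, 0.51, 0.50 and 0.05, all above every LiCl and NaCl replicate. SMM gave -0.15 and 0.32, 3-AT gave -0.18, -1.0 and -0.01, and nitrogen depletion gave -0.08 and -0.21. The his3 deletion without histidine gave -0.44, -0.27, -0.46 and 0.20, with 1 of the 4 above 0. The adjusted p of limma for PUS7 in these 5 comparisons lay between 0.43 and 0.997.

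DEG1 (YFL001W), whose product modifies the anticodon arm, fell in LiCl, NaCl, rapamycin and glucose depletion, by smaller amounts than PUS7. It was at -0.08, -0.52 and -0.45 in LiCl (mean -0.35 ± 0.23, limma adjusted p = 0.00675, n = 3), and at -0.33 and -0.86 in NaCl (mean -0.60 ± 0.37, limma adjusted p = 0.000447, n = 2). Rapamycin gave -0.36, -0.41 and -0.56 (mean -0.44 ± 0.10, limma adjusted p = 0.000716, n = 3), and glucose depletion gave -0.20 and -0.48 (mean -0.34 ± 0.20, limma adjusted p = 0.0398, n = 2). All 10 values were below 0. Leaving out LiCl replicate 2 (mean -0.27) or 3 (mean -0.30), NaCl replicate 2 or either glucose replicate ended the call in that treatment.

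DEG1 did not pass elsewhere among the 11. KCl gave -0.11, 0.04, -0.02 and -0.07, heat shock -0.38 and -0.18, and amino acid depletion -0.29 and -0.11. SMM gave -0.21 and 0.14, 3-AT gave -0.07, -0.49 and -0.10, nitrogen depletion gave -0.02 and -0.02, and the his3 deletion gave 0.04, -0.15, -0.17 and 0.06. Its drop in salt was deeper earlier: at 10 min the mean was -0.81 ± 0.13 in LiCl (n = 3, limma adjusted p = 1.01e-09) and -0.83 ± 0.12 in NaCl (n = 2, limma adjusted p = 3.35e-06). The 5 min means were -0.54 in LiCl, -0.49 in NaCl and -0.63 in heat shock, all called, and at 40 min the means of -0.19, -0.03 and -0.16 were not. In 3-AT at 5 min DEG1 was called higher (0.43).

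LHP1 (YDL051W), the yeast La protein, was called lower in 5 of the 11 comparisons. It stood at -0.62, -0.99 and -0.68 in LiCl (mean -0.76 ± 0.20, n = 3, limma adjusted p = 1.70e-06). Rapamycin gave -0.47, -0.69 and -1.14 (mean -0.77 ± 0.34, n = 3, limma adjusted p = 3.33e-06), and glucose depletion gave -0.98 and -0.83 (mean -0.90 ± 0.10, n = 2, limma adjusted p = 8.34e-06). All 8 of these values were lower than any value of LHP1 in KCl, where the replicates were at 0.07, 0.14, 0.01 and -0.34.

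Amino acid depletion gave LHP1 values of -0.72 and -0.71 (mean -0.72 ± 0.01, n = 2, limma adjusted p = 0.000555), and heat shock gave -0.37 and -0.66 (mean -0.52 ± 0.21, n = 2, limma adjusted p = 0.0128). The heat shock call was lost without either replicate. NaCl, at -0.29 and -0.51, did not pass (limma adjusted p = 0.0892). SMM gave -0.33 and -0.01, 3-AT gave 0.22, -0.49 and 0.41, nitrogen depletion gave 0.09 and 0.19, and the his3 deletion gave 0.15, -0.12, -0.12 and 0.12. The 3 replicates of 3-AT thus fell on both sides of 0, and batch D gave the lowest value there for LHP1, PUS7 and DEG1 alike. At 5 min of 3-AT LHP1 was called higher (0.43).

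**Figure D2:**
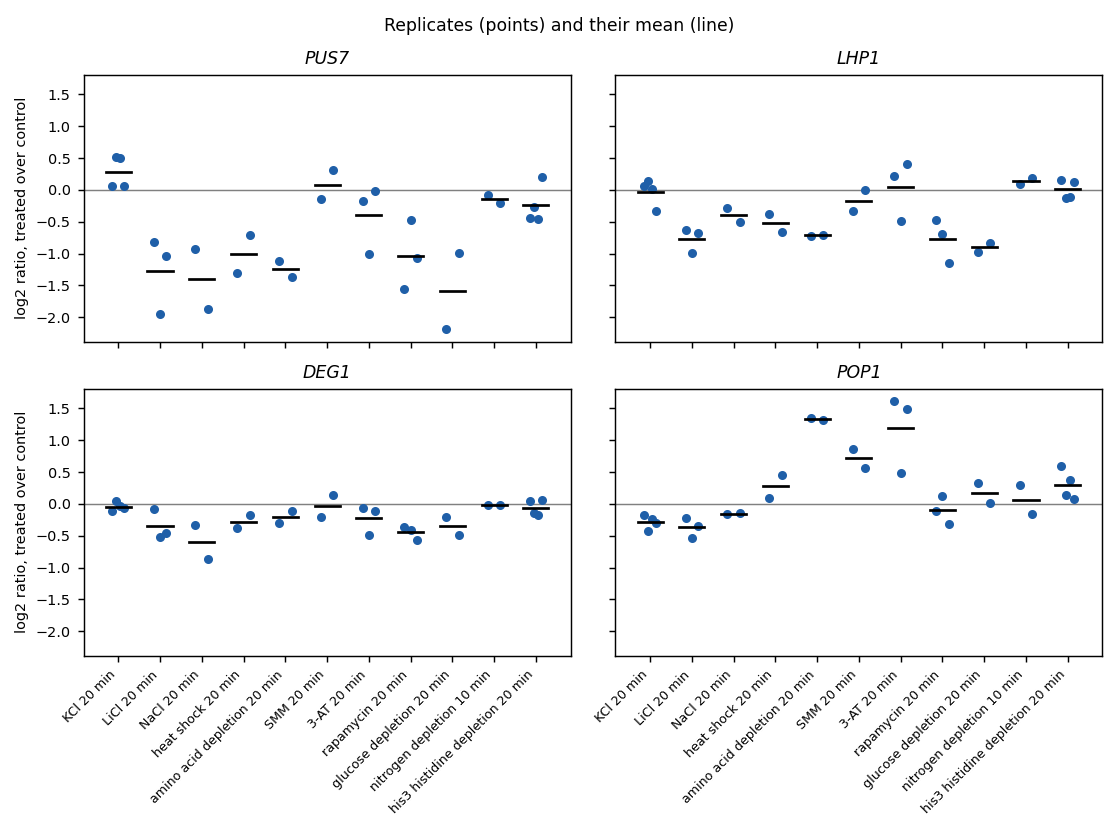
Log2 ratio of treated over control in each replicate (points) and their mean (lines) for PUS7, LHP1, DEG1 and POP1 in the 11 comparisons. PUS7 replicates of LiCl, NaCl, heat shock, amino acid depletion and glucose depletion all lie below -0.70, and POP1 replicates of amino acid depletion lie at 1.35 and 1.31.

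TRL1 (YJL087C), the tRNA ligase that also joins the HAC1 message in the unfolded protein response, passed in none of the 11 comparisons, with means between -0.19 and 0.55. Among all 76 replicated groups it passed in 2, both with a batch B array far above its partner. Glucose depletion at 5 min gave 2.31 in batch B and -0.12 in batch F. Its mean in 3-AT with KCl at 20 min was 0.62 ± 0.83 (n = 2, limma adjusted p = 0.0400).

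The 8 proteins of RNase P and RNase MRP did not move as 1 block. POP1 (YNL221C), the largest protein of both enzymes, was higher in amino acid depletion, at 1.35 and 1.31 (mean 1.33 ± 0.03, n = 2, limma adjusted p = 7.87e-08, 2.52-fold). In 3-AT it stood at 1.62, 0.49 and 1.49 (mean 1.20 ± 0.62, n = 3, limma adjusted p = 4.46e-09, 2.30-fold), and in SMM at 0.86 and 0.57 (mean 0.72 ± 0.21, n = 2, limma adjusted p = 0.0120, 1.64-fold). All 7 replicates were above 0, the lowest being the batch D array of 3-AT, and the SMM call was lost without either replicate. Fitted on its own 3 replicates alone, 3-AT gave POP1 a limma adjusted p of 0.0688.

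Elsewhere POP1 did not pass. It was at -0.17, -0.42, -0.24 and -0.30 in KCl, at -0.23, -0.53 and -0.34 in LiCl, and at -0.16 and -0.14 in NaCl. All 9 salt values lay below 0 and did not overlap with the values under amino acid shortage. The share of all oligonucleotides that separate these arrays as fully is not given here. The arrays of both sides also differ in part in batch and in the kind of control, and the difference between them was not tested. Heat shock gave 0.10 and 0.45, glucose depletion 0.33 and 0.02, nitrogen depletion 0.30 and -0.16, rapamycin -0.11, 0.12 and -0.31, and the his3 deletion at 20 min 0.59, 0.14, 0.37 and 0.08.

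Means of POP1 were larger at 20 and 40 min than at 10 min in each of these 3 treatments. Means at 5, 10, 20 and 40 min were 0.38, 0.78, 1.20 and 1.13 in 3-AT and 0.41, 0.40, 0.72 and 1.08 in SMM, and in amino acid depletion 0.60 at 10 min was followed by 1.33 and 1.18. The calls began at 10 min in 3-AT and amino acid depletion and at 20 min in SMM, where the 40 min mean was 1.08 ± 0.13 (n = 2, limma adjusted p = 4.70e-05). The salt courses ran the other way: KCl gave -0.50 at 5 min, -0.53 at 10 min and -0.35 at 40 min, each called lower, and LiCl gave -0.58 at 10 min, also called.

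Histidine depletion asks about the shortage of a single amino acid without a drug, and the repaired strain, which makes its own histidine, is its control. At 40 min POP1 stood at 0.53, 0.49, 0.44 and 0.41 in the his3 deletion, against -0.05, -0.04, -0.06 and 0.06 in the HIS3 repaired strain, with no overlap. The his3 deletion averaged 0.47 ± 0.05 (n = 4, limma adjusted p = 0.0278 against its own mock-treated culture). The difference between the strains was 0.49, with limma adjusted p = 0.306, and the comparison was added after the values were seen. Both strains have 1 replicate in batch A, 2 in C and 1 in G, and the differences of POP1 within them were 0.51, 0.46 and 0.53. With batch as a fixed term in a fit of these 8 replicates alone, POP1 was the 1 member called (limma adjusted p = 0.0322). That fit uses the same 8 values that were seen before the comparison was added, so its call is no separate support for the difference. The share of all oligonucleotides called in it, or without overlap between the strains, is not given here. In the fit of all groups none of the 18 members passed, where 0.961% of all oligonucleotides did by limma. In that fit 156 oligonucleotides had an unadjusted p under 0.05. Other members of the 18 differed by as much without passing. PUS7 was at -0.59, -0.53, -0.41 and -0.07 in the his3 deletion, against 0.30, 0.16, -0.26 and 0.39 in the HIS3 repaired strain, a difference of -0.55 (limma adjusted p = 0.68) with overlapping ranges, and within A, C and G it was -0.15, -0.67 and -0.69. POP4 was at 0.14, 0.30, 0.24 and -0.01, against -0.04, -0.12, -0.24 and -0.18, a difference of 0.31 (limma adjusted p = 0.505), and LHP1 differed by -0.28 (limma adjusted p = 0.644), both with the same sign in A, C and G.

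POP5 (YAL033W), POP6 (YGR030C) and POP7 (YBR167C) were called higher in KCl. POP5 was at 0.41, 0.56, 0.46 and 0.48 (mean 0.48 ± 0.06, n = 4, limma adjusted p = 2.92e-05), and POP6 was at 0.47, 0.53, 0.56 and 0.37 (mean 0.48 ± 0.08, n = 4, limma adjusted p = 0.00715). POP7, which pairs with Pop6 on the RNA of both enzymes, gave 0.64, 0.46, 0.24 and 0.06 (mean 0.35 ± 0.25, n = 4, limma adjusted p = 0.000726). All 12 values were above 0, with POP7 the most spread. The 3 genes remained called at 10 and 40 min in KCl, and POP5 and POP7 also at 5 min.

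RPP1 (YHR062C), another protein of both enzymes, went the other way in KCl. Its replicates were at -0.49, -0.41, -0.26 and -0.34 (mean -0.38 ± 0.10, n = 4, limma adjusted p = 0.0355), all below 0, but the call was lost when any 1 of them was left out. In LiCl RPP1 stood at -0.67, -1.75 and -0.91 (mean -1.11 ± 0.57, n = 3, limma adjusted p = 1.86e-08), and in NaCl at -0.79 and -0.62 (mean -0.71 ± 0.12, n = 2, limma adjusted p = 0.00733). The NaCl call was lost without either replicate. RPP1 was also called lower at 5, 10 and 40 min in LiCl and at 5 and 10 min in KCl. Over the 76 replicated groups it had 14 lower calls and 1 higher, in rapamycin at 10 min (0.79).

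RPP1 did not pass in the other 8 comparisons. Glucose depletion gave -0.53 and -0.43, the nearest to passing (limma adjusted p = 0.0586, and 0.0171 with batch as a random block), and heat shock gave -0.25 and -0.18. Amino acid depletion gave -0.08 and -0.04, SMM -0.02 and 0.06, 3-AT 0.28, -0.39 and 0.49, rapamycin -0.10, 0.08 and -0.62, nitrogen depletion 0.28 and 0.05, and the his3 deletion 0.37, -0.17, 0.02 and 0.16. In 3-AT, rapamycin and the his3 deletion the replicates lay on both sides of 0.

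POP6 was also called higher in LiCl and in glucose depletion. LiCl replicates were at 0.52, 1.70 and 0.08 (mean 0.77 ± 0.84, n = 3, limma adjusted p = 0.000125), and without replicate 2, the arrays with most missing spots, the mean was 0.30 and was not called. Glucose depletion gave 0.67 and 0.51 (mean 0.59 ± 0.12, n = 2, limma adjusted p = 0.0229), a call lost without either and with batch as a random block. Amino acid depletion, at 0.35 and 0.68, did not pass (limma adjusted p = 0.058), but did with arrays lacking over 20% of their spots left out (limma adjusted p = 0.013).

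Values of POP6 in the other treatments varied more between replicates. NaCl gave 0.08 and 0.76, heat shock 0.70 and 0.13, and nitrogen depletion 0.10 and 0.55. SMM gave 0.05 and -0.20, 3-AT gave 0.00, -0.16 and 0.30, rapamycin gave -0.02, -0.05 and -0.34, and the his3 deletion gave -0.13, 0.28, -0.03 and -0.15. None of these passed, and in NaCl, heat shock and nitrogen depletion 1 value of the pair was near 0.

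The remaining RNase P proteins were called in few of the 11 comparisons. POP4 (YBR257W) was higher in 3-AT, at 0.69, 0.24 and 0.90 (mean 0.61 ± 0.34, n = 3, limma adjusted p = 0.000327), with the lowest value again from batch D; without replicate 3 its mean was 0.47 and was not called. POP4 was also called higher at 5, 10 and 40 min of 3-AT, at 40 min of KCl (0.79 ± 0.23, n = 4) and at 40 min of amino acid depletion (0.77 ± 0.28, n = 2). Over the 76 replicated groups POP4 was called higher in 8 and lower in 3. The lower calls were rapamycin at 10 min (-0.70), LiCl at 5 min (-0.41) and 3-AT with KCl at 10 min (-0.54). POP7 reached 0.42 and 0.21 in glucose depletion (mean 0.31 ± 0.15, n = 2, limma adjusted p = 0.0376), a call lost without either replicate.

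RPR2 (YIR015W), the protein of RNase P that RNase MRP lacks, was called higher in glucose depletion, at 0.92 in batch B and 0.33 in batch F (mean 0.63 ± 0.41, n = 2, limma adjusted p = 0.00953), and not without the batch B array. At 5 and 10 min of glucose depletion the batch B arrays gave 1.54 and 1.01 and the batch F arrays 0.04 and 0.08, while at 40 min they stood together at 0.67 and 0.65. POP5 was lower in LiCl by limma (mean -0.39 ± 0.48, n = 3, limma adjusted p = 0.00262), but its replicates were at -0.10, -0.95 and -0.14 and the call rested on replicate 2, without which the mean was -0.12. POP3 (YNL282W) passed in none of the 11, with means between -0.33 and 0.43. Amino acid depletion at 10 and 40 min was called for POP3, yet the replicates there were -0.06 and 1.70, then 0.39 and 1.34, each time with batch B higher.

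Both adenosine deaminases change adenosine to inosine in tRNA, Tad2 at the wobble base of the anticodon and Tad1 beside the anticodon. TAD2 (YJL035C) was called higher in heat shock at all 4 times. At 20 min its replicates were 0.33 and 0.46 (mean 0.39 ± 0.09, n = 2, limma adjusted p = 0.0122), and at 5, 10 and 40 min they were 0.67 and 0.28, 0.35 and 0.54, and 0.48 and 0.43. All 8 values were above 0, but the 20 min call was lost without either replicate. A separate heat course over an untreated culture of time 0, with 1 replicate and no test, gave TAD2 values of 0.29, 0.42, 0.35 and 0.42 at 5, 10, 20 and 40 min. Outside heat shock TAD2 was called higher in LiCl at 40 min (0.40) and lower in rapamycin at 5 min (-0.63).

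TAD1 (YGL243W) passed in none of the 11 comparisons, with means between -0.24 in glucose depletion and 0.50 in NaCl. It was called higher in KCl at 5 min, at 0.43, 0.63 and 0.54, and at 10 min, at 0.46, 0.49, 0.29 and 0.41. Those 7 values were all above 0. LiCl at 40 min was called too, though its replicates of 0.28, 1.32 and 0.09 differed by over 1 on the log2 scale.

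Elongator adds the side chain of wobble uridines in tRNA, and Kti12 is a factor that Elongator needs. ELP4 (YPL101W), a subunit of Elongator's accessory ring, was higher in LiCl, at 1.03, 0.15 and 0.53 (mean 0.57 ± 0.44, n = 3, limma adjusted p = 4.70e-05), and in NaCl, at 0.34 and 0.48 (mean 0.41 ± 0.10, n = 2, limma adjusted p = 0.0372). In glucose depletion ELP4 was lower, at -0.92 in batch B and -0.16 in batch F (mean -0.54 ± 0.54, n = 2, limma adjusted p = 0.00231). The NaCl call was also lost with batch as a random block. None of these 3 calls held without the replicate farthest from 0: without it the means were 0.34 in LiCl, 0.34 in NaCl and -0.16 in glucose depletion.

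KTI12 (YKL110C) moved against ELP4 in salt. It fell in LiCl (mean -0.56 ± 0.29, n = 3, limma adjusted p = 1.97e-05), where its replicates were -0.61, -0.25 and -0.83, and in NaCl (mean -0.43 ± 0.06, n = 2, limma adjusted p = 0.0179). In 3-AT it was higher, at 0.49, 0.02 and 0.76 (mean 0.42 ± 0.38, n = 3, limma adjusted p = 0.00524), and was already called at 5 and 10 min, with means of 0.34 and 0.42. The 3-AT call was lost without replicate 1 (mean 0.39) or 3 (mean 0.26), and the NaCl call without either replicate. ELP2 (YGR200C), a subunit of the Elongator core, was called in LiCl alone among the 11 (mean -0.31 ± 0.15, n = 3, limma adjusted p = 0.0362), and not without replicate 2 or 3, when the means were -0.23 and -0.33, nor with batch as a random block (-0.26).

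SEN1, which is no tRNA enzyme, was lower in amino acid depletion, at -0.20 and -0.56 (mean -0.38 ± 0.25, n = 2, limma adjusted p = 0.0445). It was also lower in LiCl (mean -0.29 ± 0.29, n = 3, limma adjusted p = 0.0434), where the replicates were -0.13, -0.63 and -0.12. The first call was lost without either replicate or with batch as a random block and the second without replicate 2, when the mean was -0.13.

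The courses place these changes in time. PUS7 was lowest at 20 min in LiCl and NaCl, with means of -0.53 and -0.28 at 40 min that were not called. In heat shock it was called at all 4 times, with means of -1.24, -1.36, -1.0 and -1.07 at 5, 10, 20 and 40 min, and likewise in glucose depletion, with -1.18, -1.41, -1.59 and -1.39. LHP1 had a later course in LiCl, at -0.20, -0.35, -0.76 and -0.84, called from 10 min, and in heat shock, at -0.27, -0.53, -0.52 and -0.58, also called from 10 min. In glucose depletion LHP1 was at -0.79 by 5 min and remained between -0.93 and -0.72, called at all 4 times. Differences between times were not tested.

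**Figure D3:**
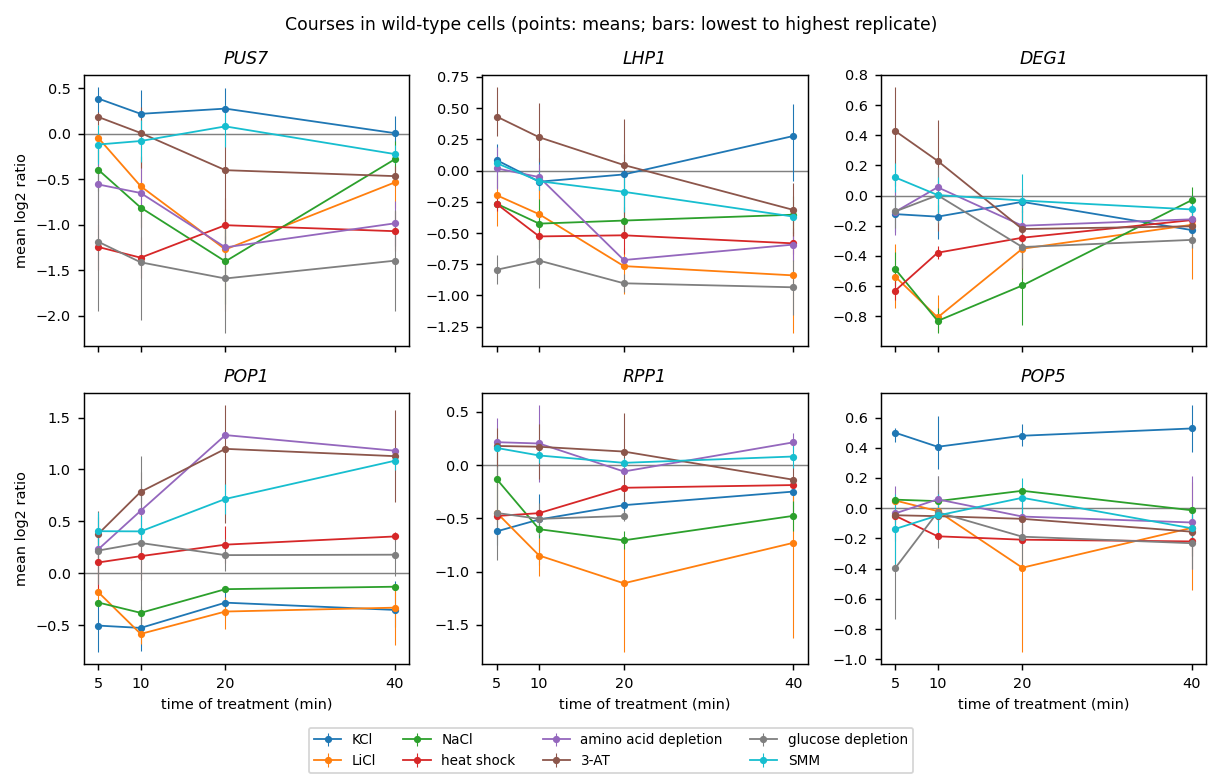
Mean log2 ratio of treated over control (points) against time of treatment in minutes for 6 genes in 8 wild-type treatments, with bars from the lowest to the highest replicate. Groups with 1 replicate are not drawn, and the vertical scale differs between panels. PUS7 in KCl stays at or above 0.01 while glucose depletion lies between -1.59 and -1.18, and POP1 separates into treatments that cut the amino acid supply above and salts below.

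Potassium and lithium salt were compared directly at 20 min, each over its own mock-treated culture. The doses differ, 1 M KCl and 300 mM LiCl. Of the 18 members, 6 differed, 5 higher and 1 lower in KCl than in LiCl, where 35.8% of all oligonucleotides differed (18.2% higher, 17.6% lower). The widest gap was in PUS7, which averaged 0.28 ± 0.26 in KCl (n = 4) and -1.27 ± 0.60 in LiCl (n = 3), a difference of 1.55 ± 0.38 (SE, limma adjusted p = 0.000681). POP5 averaged 0.48 ± 0.06 in KCl and -0.39 ± 0.48 in LiCl, a difference of 0.87 ± 0.15 (SE, limma adjusted p = 8.89e-07), and LHP1 averaged -0.03 ± 0.21 in KCl and -0.76 ± 0.20 in LiCl, a difference of 0.73 ± 0.18 (SE, limma adjusted p = 0.000706). The replicates of the salts did not overlap for any of the 3 genes. How many of all oligonucleotides show no overlap is not given here.

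RPP1, lower in both salts, was 0.73 higher in KCl than in LiCl (SE 0.22, limma adjusted p = 0.00597), with a difference of 0.41 that was not called once LiCl replicate 2 was left out. KTI12 was 0.53 higher in KCl (SE 0.15, limma adjusted p = 0.00359), but not called without LiCl replicate 3, at 0.39. ELP4 replicates were at -0.21, 0.23, 0.17 and 0.17 in KCl and at 1.03, 0.15 and 0.53 in LiCl, which overlap, and the difference was -0.48 ± 0.16 (SE, limma adjusted p = 0.0130). Without KCl replicate 1 or LiCl replicate 1 it was -0.38 or -0.25 and was not called.

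Batch overlaps with salt in this comparison, since KCl replicates came from A, G and H and LiCl replicates from H and F. Within batch H, with 1 KCl and 2 LiCl replicates, the differences of KCl minus LiCl were 1.44 for PUS7, 1.01 for POP5, 0.47 for LHP1, 0.87 for RPP1, 0.29 for KTI12 and -0.42 for ELP4. All 6 kept their direction, but these replicates are part of the comparison itself, so this is no separate support. The arrays of 1 of the 2 LiCl replicates lacked 64.1% and 54.3% of their spots. With batch as a fixed term in a fit of these 2 groups alone, none of the 18 members was called. Only batch H holds both salts, so that fit rests on its few replicates. Its share of all oligonucleotides is not given here.

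**Figure D4:**
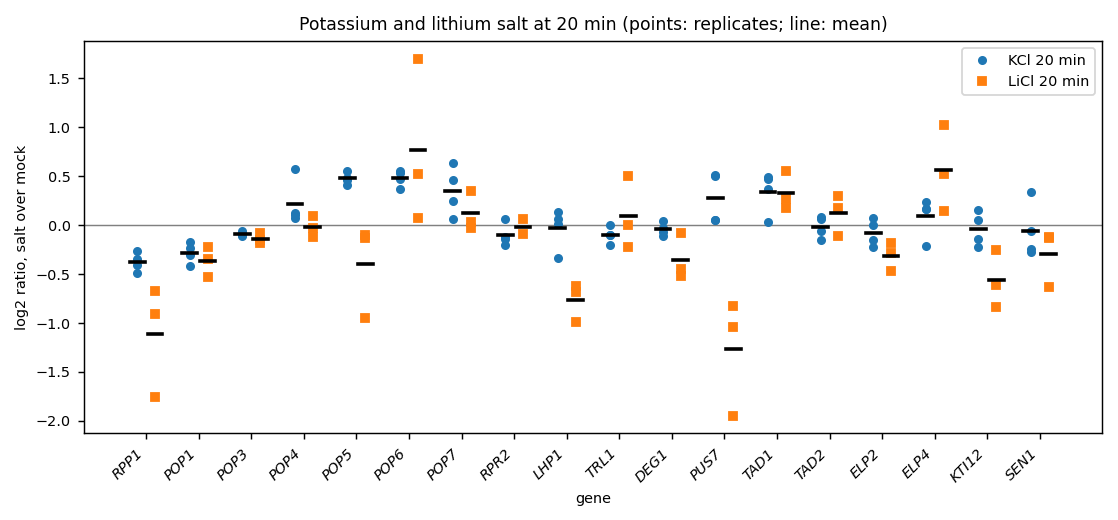
Log2 ratio of salt over mock-treated culture at 20 min in each replicate. KCl is drawn as circles on the left and LiCl as squares on the right of each gene, with a line at the mean. KCl points of PUS7, POP5 and LHP1 lie above all LiCl points of the same gene.

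The hog1 deletion and the wild type were compared in their response to KCl at 20 min. POP5 was at 0.64 and 0.45 in the hog1 deletion, against 0.41, 0.56, 0.46 and 0.48 in the wild type, and RPP1 was at -0.32 and -0.27, against -0.49, -0.41, -0.26 and -0.34. Differences of hog1 minus wild type over the 18 members ran from -0.15 to 0.12. None of them passed limma, nor did any oligonucleotide (0% called, 3 at an unadjusted p under 0.05), and the standard errors of 0.15 to 0.44 leave room for differences of that size or larger. POP5 was called in the hog1 deletion at all 4 times, with means of 0.44, 0.42, 0.55 and 0.63 at 5, 10, 20 and 40 min.

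KCl with TBB against KCl alone, a comparison also added after the values were seen, gave 0 members and 0% of all oligonucleotides by limma at 20 min, with 54 oligonucleotides at an unadjusted p under 0.05. Over the 65 replicated groups outside the 11 comparisons (other times, strains and mixed treatments, hog1 included), 70 of 1170 member tests passed as higher and 74 as lower. Together that is 12.3%, against 14.6% of the tests of all oligonucleotides in the same groups. In 20 of the 65 groups no member passed.

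Among the mixed treatments, 3-AT with KCl stood out in PUS7 for its scatter. At 20 min the batch E replicate was at -0.46 and the batch B replicate at -5.62, which is the mean of 2 copies at -7.80 and -3.45 on 1 array that lacked 29.9% of its spots. The limma mean of -3.04 therefore describes neither replicate, and the array's spread enters the error of PUS7 in every comparison above. LHP1 fell in 3-AT with KCl at all 4 times (means -0.59, -0.84, -0.52 and -0.58), and DEG1 at 10, 20 and 40 min (-1.05, -0.42 and -0.47). POP1 was called at no time in 3-AT with KCl. In nitrogen depletion with 3-AT it was called higher at 40 min alone (0.66). In 3-AT with TBB over a culture before treatment it was called higher at 0, 5, 10 and 15 min. Its means there were 0.86, 0.56, 0.75 and 0.83, so the higher value was already present at 0 min. In 3-AT with TBB over 3-AT alone POP1 was called higher at 5 min (0.64) and not at 10 or 20 min. LHP1 was also lower in wortmannin at 20 min (-0.55 ± 0.09, n = 2, limma adjusted p = 0.0117) and 40 min (-0.65 ± 0.31, n = 2, limma adjusted p = 0.0011), whereas PUS7 at -0.53 and -0.36 there was not called. Inositol depletion, with 2 replicates at each of 4 times, gave no call in PUS7, LHP1, DEG1, POP1, RPP1 or POP6, and its PUS7 means lay between -0.29 and -0.03.

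Groups with 1 replicate have no test, and their values are given as they stand. In 3-AT at 20 min, PUS7 was at -0.99 in the ckb1 deletion, -1.0 in the ckb2 deletion and -1.17 in the double deletion, each over its own culture before treatment, and POP1 was at 0.48, 0.74 and 0.57 in the same arrays. These strains lack regulatory subunits of casein kinase 2. The wild-type replicate of the same batch, D, was at -1.0 for PUS7 and 0.49 for POP1, close to the deletions. In SMM at 20 min POP1 was at 0.64, 0.96, 0.69 and 0.89 in the cka1, cka2, ckb1 and ckb2 deletions over cultures before treatment. The wild type was at 0.86 and 0.57 over mock-treated cultures of the same time.

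KCl in further deletion strains also gave values of 1 replicate. POP5 at 20 min was 0.51 in the rrp6 deletion, 0.48 in the double ckb deletion and 0.26 in the edc2 deletion, and POP1 was -0.57, -0.34 and -0.40. PUS7 in those arrays was 0.06, 0.30 and 0.06. The sugar alcohol sorbitol (1 M) gave PUS7 values of -0.73, -0.67, -0.61 and -0.37 at 5, 10, 20 and 40 min, and POP5 values between -0.11 and -0.03. At 60 min of KCl PUS7 stood at -0.87, below all 15 replicates of the earlier KCl times.

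The rrp6 deletion, which lacks a nuclear exosome subunit, was also set directly over the wild type in the same treatment. POP6 was 1.70, 1.63, 1.15 and 0.72 in KCl at 5, 10, 20 and 40 min, and 0.38, 1.21, 0.80 and 0.50 in LiCl. Before treatment it was 0.31. POP5 was higher in the deletion in KCl, at 0.60, 0.50, 0.69 and 0.91, and PUS7 in LiCl was at 0.77, 0.77, 0.70 and 0.18. The double ckb deletion over the wild type gave POP6 values of 1.67, 1.13, 0.92 and 0.97 in rapamycin at 5, 10, 15 and 20 min, against 0.09 before treatment. All these are single replicates, and replicates of POP6 in wild-type LiCl at 20 min ran as far apart as 1.70 and 0.08.

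Profiles of the members over the 76 replicated groups were compared as a description. The groups share control cultures, batches and arrays with missing spots, so they are not independent. Pearson's r over all pairs of the 18 genes had a median of 0.05 and ran from -0.73 to 0.68, with 15 pairs over 0.5. KTI12 and POP1 were the most alike (r = 0.68), followed by LHP1 and PUS7 (0.67), LHP1 and RPP1 (0.63), and DEG1 and RPP1 (0.63). The lowest was PUS7 with RPR2 (-0.73). The 28 pairs among the 8 proteins of RNase P and RNase MRP had a median of 0.09 and ran from -0.50 to 0.62, with 2 over 0.5.

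**Figure D5:**
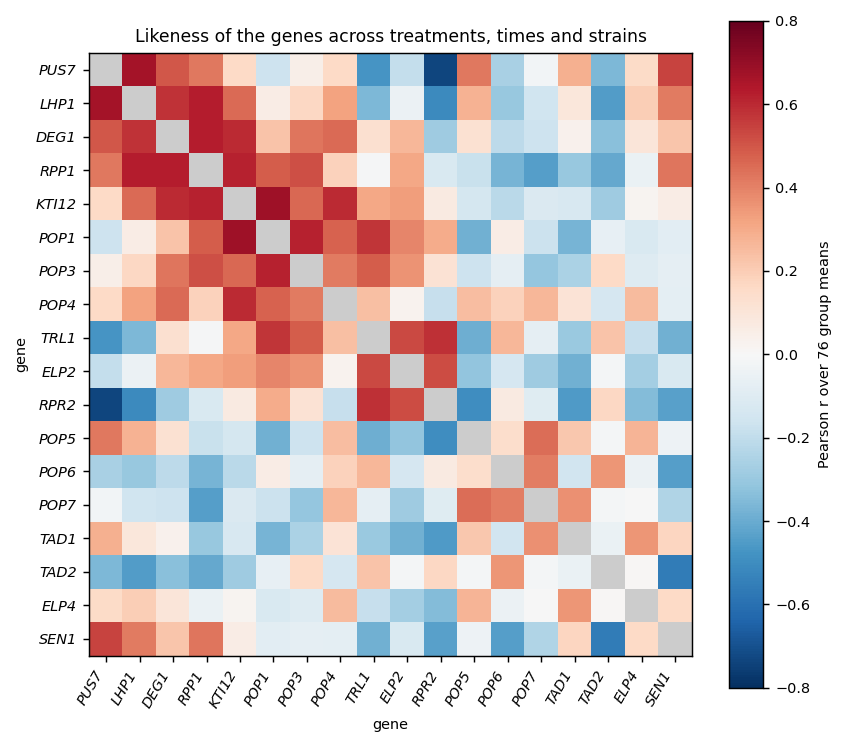
Pearson's r between the log2 ratios of each pair of genes over 76 group means, red above 0 and blue below, with the diagonal in grey. PUS7, LHP1, DEG1, RPP1 and KTI12 are red against each other, and the row of RPR2 is blue against PUS7 (-0.73) and LHP1 (-0.51).

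Other genes of the tRNA pathway on the array give the setting. SNM1, the 1 gene found of 4 further RNase P and RNase MRP genes, was lower in LiCl (-0.41, limma adjusted p = 0.0487) and passed in no other comparison of a treatment with its control. Of 28 further genes listed under modification, TAN1 and RRP8 were on the array, and of 20 tRNA synthetases, none. RRP8, which encodes a methyltransferase of ribosomal RNA and not of tRNA, was higher in amino acid depletion (0.82, limma adjusted p = 0.00116). TAN1, needed for acetylation of cytidine in tRNA, is read by 3 oligonucleotides. In amino acid depletion oligonucleotides 1 and 2 were both lower (-0.71 and -0.54), in SMM (-1.27) and heat shock (-0.57) only oligonucleotide 2 was, and in glucose depletion (-1.22) only oligonucleotide 1. In KCl oligonucleotide 2 was higher (0.37), and oligonucleotide 3 passed in none of the 11 comparisons.

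Among 9 genes of tRNA export and turnover, of 17 listed, 4 rose and 2 fell in 3-AT, 2 rose and 4 fell in amino acid depletion, and 1 rose and 3 fell in each of KCl, LiCl and rapamycin. In glucose depletion 2 rose and 3 fell, in heat shock, SMM and the his3 deletion 1 rose and 1 fell, in NaCl 1 fell, and in nitrogen depletion none passed. The shares of all oligonucleotides given above, such as 11.9% in 3-AT and 26.9% in amino acid depletion, are the background for these counts. MET22, whose loss blocks decay of faulty tRNA, was higher in the 3 treatments in which POP1 was: 1.76 in 3-AT (limma adjusted p = 6.60e-19), 1.93 in amino acid depletion (limma adjusted p = 5.07e-16) and 0.62 in SMM (limma adjusted p = 0.0165). It was also higher in the his3 deletion (0.61) and in rapamycin (0.37), where POP1 was not called. GSP1, of the same 9 genes, went the other way in those 3 treatments, at -0.901 in 3-AT, -1.009 in amino acid depletion and -0.9997 in SMM, all called. GSP1 was also called lower in KCl, glucose depletion and the his3 deletion, where POP1 was not called. MTR4, a helicase of the nuclear exosome, was lower in 4 of the 6 comparisons in which PUS7 fell: -1.07 in LiCl, -0.71 in NaCl, -1.25 in amino acid depletion and -0.89 in rapamycin.

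RNA polymerase III, which makes tRNA, and its factors were read by 13 oligonucleotides for 9 of 25 listed genes. In LiCl 3 of them rose and 3 fell (37.1% of all oligonucleotides passed there), in glucose depletion 2 rose and 2 fell (35.1% of all), in KCl and rapamycin 2 rose and 1 fell, and in NaCl and amino acid depletion 1 rose and 2 fell. In heat shock and 3-AT 2 fell, and in the other 3 comparisons none passed. RPC19, whose product sits in RNA polymerases I and III, was lower in all 6 comparisons in which PUS7 fell: -1.65 in LiCl, -1.27 in NaCl, -0.78 in heat shock, -1.15 in amino acid depletion, -1.55 in rapamycin and -2.10 in glucose depletion. In KCl it was higher, at 0.54 (limma adjusted p = 0.00749). BDP1, a subunit of the polymerase's initiation factor TFIIIB, went the other way in 4 of those 6, at 0.91 in LiCl, 0.88 in NaCl, 0.64 in rapamycin and 0.39 in glucose depletion, and was higher in KCl too (0.32). MAF1, the repressor of RNA polymerase III, was higher by its oligonucleotide 3 in LiCl (0.74) and glucose depletion (1.00). Its other oligonucleotides are not given here, so these values do not describe the gene as a whole. Which part of the gene each oligonucleotide reads was not examined, here or for TAN1 and TAD3. POP8 and TAD3, the matching genes with 3 oligonucleotides each, gave 3 calls of 6 in rapamycin, all of them TAD3 and higher, and at most 1 in every other of the 11 comparisons.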

How the data were processed

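The authors deposited log ratios of channel 1 over channel 2 for each spot, taken here as log2 ratios; how they were normalized and centred, and the base of the logarithm, are not given in the sources used here. Copies of an oligonucleotide and then dye orientations were averaged. Signs were turned for 4 identifiers labelled in reverse, and 7 that, read as labelled, ran against their own replicates were left out. The dye effect followed the labels in 282 of 282 swapped pairs. RRP6 had a median of -2.06 in 26 arrays of the rrp6 deletion over the wild type, with values from -4.08 to -0.11. Limma 3.58.1 in R 4.3.3 fitted 76 replicated groups (185 replicate values, 109 residual degrees of freedom), two-sided, adjusted over 1457 oligonucleotides in each comparison, and was tested on simulated data. Gene values per replicate are given for the 3 called members of largest mean in each direction and for the 6 called most often. Members and lists were chosen with earlier results of these data known. Spot intensities were not used here, and the number of arrays limits the precision. No sequence or genome build was used here, so sequences and positions are not given. Alternatives are in the closing section.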

Additional observations from a re-analysis of the deposited data

Results flagged for a closer look

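Among 108 checks of 18 genes in 6 groups of 4 replicates, 5 replicates lay far from the other 3, about the 1 in 20 that chance gives. ELP4 in KCl at 20 min had 1 replicate at -0.21 and the others between 0.17 and 0.23. POP4 in KCl at 20 min had 1 at 0.58 and the others between 0.08 and 0.13. POP4 in the his3 deletion without histidine at 20 min had 1 at 1.25 and the others between -0.07 and 0.02. POP6 in the his3 deletion at 40 min had 1 at 0.29 and the others between 0.02 and 0.04. POP3 in the HIS3 repaired strain at 40 min had 1 at -0.22 and the others between -0.01 and 0.02.

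The response to KCl differed from the response to LiCl at 20 min by limma in PUS7 (difference 1.55), POP5 (0.87), LHP1 (0.73), RPP1 (0.73), KTI12 (0.53) and ELP4 (-0.48). The doses of the salts differ, and batches overlap in part.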

How the results depend on the processing

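Counts of called members moved as follows. With arrays over 20% missing left out, LiCl gave 5 calls (31.5% of all oligonucleotides) and amino acid depletion 7 (36.9% of all). Glucose depletion gave 3 (24.1% of all) and the his3 deletion 1 (2.61% of all). The share of all oligonucleotides is not given for the settings that follow, so those counts describe the members only. The his3 deletion also gave 1 with the dye effect subtracted from arrays of 1 orientation, with the noisiest 25% of oligonucleotides left out, and with p adjusted over all comparisons; without the noisiest oligonucleotides SMM gave 0. Batch as a random block (correlation 0.236) gave 2 in amino acid depletion, and rapamycin gave 0 with the unsettled arrays as labelled. Fitted on their own replicates alone, LiCl gave 3, NaCl 9, heat shock 0, 3-AT 0, glucose depletion 0 and the his3 deletion against the HIS3 repaired strain 1 (POP1). Batch as a fixed term gave 0 for KCl against LiCl and 1 for his3 against HIS3 repaired. Leaving out 1 replicate gave 5 to 9 calls in LiCl, 0 to 2 in NaCl, 0 in heat shock, 0 in SMM, 1 to 3 in 3-AT, and 1 to 4 in glucose depletion; n = 2 groups then rest on 1 array and the shared spread. The cause of these shifts was not tested beyond the fewer arrays or oligonucleotides that such settings use. Of 970 values of single genes under these alternatives, 857 kept their side of the threshold, 106 lost a call and 7 gained one. None went from a call in one direction to a call in the other. Changes of sign in genes without a call are not given here. The 970 include genes not called in the fit of all groups, which had no call to lose. The 857 therefore do not measure how stable the calls were. With 1 replicate left out, 49 of 259 values lost a call, and these too include genes not called. No paired analysis was possible because the labels give no replicate numbers shared between groups; batch, which groups do share, was the block in the fits above.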
